A study of Drosophila melanogaster x Drosophila simulans with 3 samples.

Results

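Long exons that have the same length in Drosophila melanogaster and Drosophila simulans were examined for unequal reading of the parental alleles in hybrid heads. An exonic region here is a single exon, or a block of overlapping exons fused into one, as the S or F that opens its identifier marks it. Members were the regions of 1500 or more bases whose length was identical in the references of both strains and whose sequence identity between the species was under 100%. Of the 60040 regions in the deposited tables, 1660 met this rule, 1312 of them single exons and 348 fused blocks. The other 7 regions of this length class that were equal in length had 100% identity and were left out.

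All samples were heads of female F1 hybrids whose mothers were D. melanogaster of strain Berlin and whose fathers were D. simulans of strain C167.4. Each of the 3 libraries was made from a separate pool of 200 virgin females, aged 1 to 1.5 days and reared at 25 °C. Polyadenylated RNA was sequenced as 54 bp paired ends, with a lane for each replicate. There was no other group, so the comparison was between the D. melanogaster and the D. simulans allele within each library, and species and transmitting parent cannot be told apart.

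In an F1 hybrid both parental copies of a gene sit in the same nuclei and meet the same transcription factors. A difference between their transcript levels is therefore read as a difference that acts in cis, on the allele itself, once errors of read placement are accounted for. Short reads can be given to an allele only where they cover a position at which the species differ. A long exon holds many such positions, and with equal lengths the references have no net insertion or deletion in the exon. In flies, long exons are often the last exon of a gene, with the 3′ untranslated region, or a large coding exon. The files do not pair regions with genes or coordinates, so regions are described by length and identity, and identifiers are given for 2 regions in each direction.

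Equality of length was less frequent among longer regions. It held for 93.6% of regions under 300 bases, for 63.1% of those from 700 up to 1500 bases, for 47.2% of those from 1500 up to 3000 bases, and for 31.3% of longer ones. Members had a median length of 1961 bases, and the longest had 13188. Their median identity was 96.34%, with quartiles of 95.43% and 97.01%, against a median of 96.73% in all other regions. The median member thus held about 76.5 differing positions, against 9.17 in the median of the other regions. In 270 members neither strain reference had been altered from the species reference. The C167.4 reference had more altered positions than the Berlin reference in 1175 members, and the Berlin reference had more in 190.

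The libraries held 26406916, 26601075 and 29004108 reads in replicates 1, 2 and 3, and members took 9.64%, 9.02% and 9.28% of them. Reads that matched a single species, or matched it better, were assigned to an allele, which gave 2096148, 1942176 and 2168167 assigned reads over the members. Match quality set replicate 2 apart, as only 32.5% of its member reads were in exact-match classes, against 66.8% and 59.8% in replicates 1 and 3. All other regions showed the same, at 30.9% in replicate 2 against 63.3% and 57.0%. Ratios were computed for the 1228 members with a mean of at least 20 assigned reads per library. Of the other 432 members, 72 had no read in any library, 8 had unassigned reads only and 352 had some assigned reads. The tested members had a median of 371 assigned reads per library, against 115 in the 32075 other tested regions, and a median standard error of the log2 ratio of 0.11 against 0.20. Per length, the members as a whole were read about as deeply as other regions, with a median of 107 assigned reads per kb against 104.

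Reads were concentrated in a few members. A single region of 7166 bases held 18.2% of all assigned member reads, the top 4 held 44.5%, and the top 100 held 74.3%. The plot of allele ratio against depth shows these regions at its right edge.

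**Figure D1:**
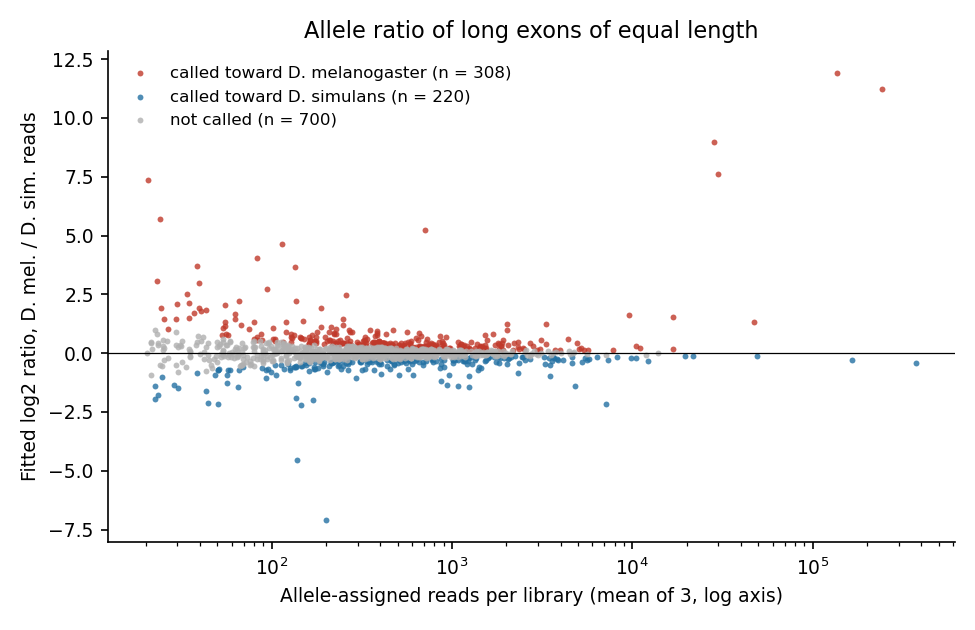
Fitted log2 ratio of D. melanogaster to D. simulans reads (vertical axis) against allele-assigned reads per library (horizontal log axis, mean of 3 libraries) for the 1228 tested members. Red points are the 308 regions called toward D. melanogaster, blue the 220 called toward D. simulans and grey the 700 not called; most points lie near 0, and 4 deeply read regions stand above 7.

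Summed over the members, D. melanogaster took 60.5%, 59.9% and 58.1% of assigned reads in replicates 1, 2 and 3, and 53.4%, 53.4% and 52.9% in all other regions. The exact (Clopper-Pearson) 95% intervals of the member shares, such as 60.47% to 60.61% in replicate 1, cover counting error only and were narrower than the spread between libraries. The mean was 59.5% ± 1.26 (SD, n = 3) in members and 53.2% ± 0.296 in other regions. The difference of 6.28 percentage points had the same sign in all 3 libraries, and a two-sided exact sign-flip test gave p = 0.25, the smallest that 3 libraries allow.

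That excess rested on 3 regions. A region of 1536 bases and fused blocks of 1685 and 1695 bases have the lengths of exon blocks on the mitochondrial genome in the BDGP6 annotation, which carry mt:CoI, mt:ATPase6 with mt:CoIII, and mt:ND4. Mitochondrial DNA passes through the mother, here D. melanogaster. Lengths alone do not identify a region, as 4 members had 1536 bases, 1 had 1685 and 5 had 1695, and these 3 were the ones of the matching type with 1000 or more assigned reads per library, a limit chosen after the values were seen. Without them, the D. melanogaster share of member reads was 49.6% ± 0.154 (SD, n = 3), with 49.4%, 49.6% and 49.7% in replicates 1, 2 and 3. Without a 1788-base block as well, whose identifier number lies among theirs, it was 48.7% ± 0.307. These regions were left out for their values and on the members' side only, so these shares are not set against the other regions.

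The typical long exon leaned only slightly. The median fitted log2 ratio was 0.04 over the 1228 tested members and 0.09 over all 33303 tested regions. By library, the median was 0.05, 0.04 and 0.05 in members and 0.10, 0.10 and 0.09 in the other tested regions, lower in members in 3 of 3 libraries (two-sided exact sign-flip p = 0.25, the smallest possible). The quartiles of the member ratios were -0.17 and 0.27. A shift of the zero line by scaling between alleles moved this direction. TMM scaling, which lowers all ratios by about 0.09, put the member median at -0.05.

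Unequal allele reads were called in 528 of the 1228 tested members (43.0%), by edgeR's quasi-likelihood test with adjustment over all tested regions at an adjusted p under 0.05. Over all 33303 tested regions the called share was 35.6%, and over the 32075 that are no members 35.3%. D. melanogaster reads were in excess in 308 members (25.1%, against 23.4% of all tested regions) and D. simulans reads in 220 (17.9%, against 12.2%). D. simulans thus had 41.7% of the calls in members and 34.2% of all calls. With TMM scaling between the alleles D. simulans had 61.1% of the member calls, 203 toward D. melanogaster and 319 toward D. simulans. Under the same scaling D. simulans had 47.5% of the calls over all tested regions. All 3 libraries leaned the same way in 763 tested members (62.1%, against 56.0% of all tested regions) and in 513 of the called ones, whose calls rest on the same libraries. Without replicate 2, 408 members were called (33.3%, against 27.9% of all tested regions). The DESeq2 Wald test called 248 members (20.2%, against 18.0% of all tested regions). Without the replicate block, edgeR called 278 members (22.6%, against 24.1% of all), so the order of members and all regions was turned. It was also turned with single-genome reads, at 28.7% of members against 38.4% of all, and in edgeR's test against a minimum log2 ratio of 0.32, at 13.8% against 18.1%. Exons of one gene are read from the same transcripts, and the difference in called share between members and other regions was not tested.

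Imbalances in members were mostly small. The median absolute log2 ratio of called members was 0.42, or 1.34-fold, against 0.66 over all called regions. In called long exons of unequal length it was 0.41, so small ratios were not particular to members. A ratio of at least 2-fold was called toward D. melanogaster in 52 members (4.23%, against 6.91% of all tested regions) and toward D. simulans in 25 (2.04%, against 2.89%). At 4-fold or more there were 21 members with a D. melanogaster excess (1.71%, against 2.43% of all tested regions) and 7 with a D. simulans excess (0.570%, against 0.901%).

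Read depth bears on these shares, since more reads make smaller ratios detectable. Among regions with 20 up to 50 assigned reads per library, 34.2% of 79 members and 20.6% of 7947 other regions were called. From 50 up to 100 reads the shares were 32.1% and 26.3%, and from 100 up to 300 reads 38.1% and 36.8%. From 300 up to 1000 reads the order was turned, at 40.6% of 463 members against 51.2% of 5423 other regions. With 1000 or more reads it was 62.1% of 243 members against 66.8% of 2456. In that deepest class D. simulans had 77 of the 151 member calls, against 586 of 1640 in the other regions, and the median log2 ratio was -0.02 in members and 0.08 in other regions. Calls at 2-fold or more were made in 31.6% of members against 15.8% of other regions from 20 up to 50 reads, and in 14.3% against 10.8% from 50 up to 100. From 100 up to 300 reads the shares were 6.04% and 7.51%, from 300 up to 1000 reads 0.648% and 5.97%, and above that 5.35% and 6.76%. Long exons of unequal length were called at 39.2%, 43.0%, 35.8%, 45.8% and 59.5% over the same depth classes, from low to high. Their shares at 2-fold or more were 27.8%, 18.0%, 5.64%, 2.24% and 2.32%. The high shares below 100 reads were thus not particular to members. In the deepest class D. simulans had 109 of the 334 calls in these exons.

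**Figure D2:**
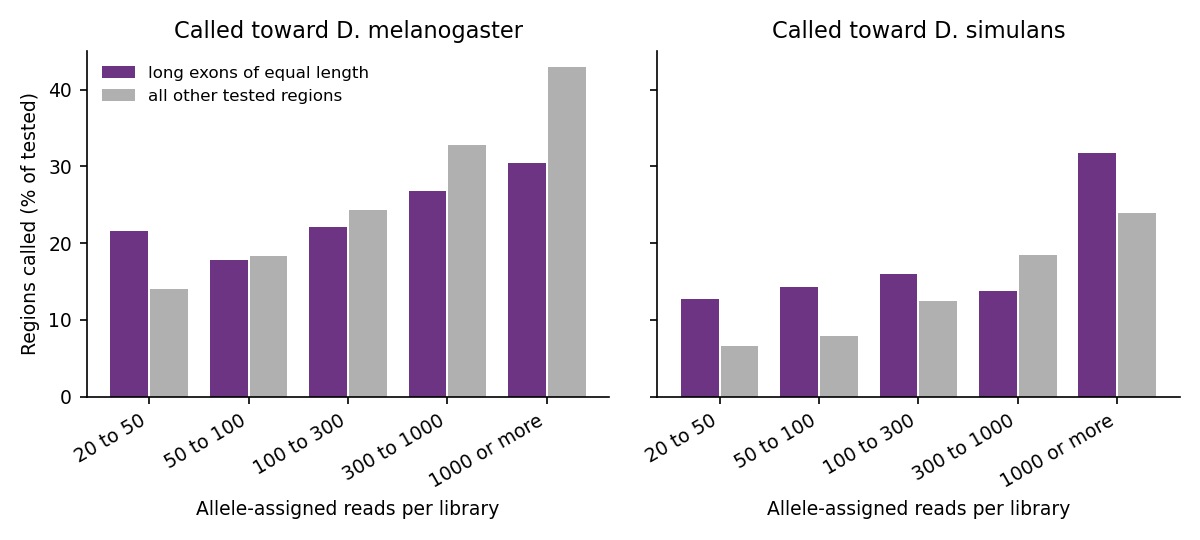
Share of tested regions called toward D. melanogaster (left) and toward D. simulans (right), in percent, by allele-assigned reads per library. Purple bars are long exons of equal length and grey bars all other tested regions; in the class with 1000 or more reads members stand at 30.5% against 42.9% on the left and at 31.7% against 23.9% on the right.

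Length within the set went with a narrower spread of ratios. The interquartile range of the log2 ratio was 0.47 in 622 members under 2000 bases, 0.44 in 460 of 2000 up to 3000 bases, 0.30 in 116 of 3000 up to 5000 bases and 0.27 in 30 longer ones. Their median assigned reads per library were 303, 421, 526 and 1739, so depth moved with length, and its part in the narrowing was not tested. The called share varied little over these classes, at 43.1%, 42.4%, 45.7% and 40.0%. In the longest class 4 of 30 members were called toward D. melanogaster and 8 toward D. simulans, against 26 and 17 of 79 long exons of unequal length. Those exons narrowed likewise over the same length classes, with interquartile ranges of 0.49, 0.43, 0.37 and 0.30. Across members, the log2 ratio itself had no ordering by length that was visible in a rank correlation (Spearman's rho 0.008, Pearson's r -0.02, n = 1228 regions sharing 3 libraries).

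Long exons whose lengths differ between the species were the closest set for comparison. Of 1951 tested, 47.3% were called, with D. melanogaster ahead in 32.3% and D. simulans in 14.9%, and the median log2 ratio was 0.10. Their interquartile range of 0.43 was close to the 0.44 of the members. Just inside the length limit, 71 tested members less than 50 bases above it had a median log2 ratio of 0.00, and 98 tested regions of equal length up to 50 bases below it had -0.05. Around the depth limit, 33 members had a mean of 20 up to 30 assigned reads and 60 had 10 up to 20. The 840 tested regions of 1500 or more bases whose lengths differed by 1 to 3 bases had a median of 0.10.

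Fused blocks had a higher median ratio than single exons. Among 280 tested fused members, 86 calls were toward D. melanogaster, 41 calls were toward D. simulans and the median log2 ratio was 0.11. Among 948 single exons the numbers were 222 and 179, with a median of 0.02. In the other tested regions the medians were 0.11 for 4713 fused blocks and 0.08 for 27362 single exons. D. simulans had 32.3% of the calls in fused members and 44.6% in single-exon members, against 31.1% and 34.4% in the other regions. The 2 types were not compared by a test.

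Imbalance was more frequent at lower identity, in members as in the other regions. Calls were made in 66.7% of 18 members at 93% identity or less, against 55.7% of other regions, and in 51.3% of 117 members above 93% and up to 95%, against 46.5%. Above 95% and up to 96% the shares were 48.7% of 232 members and 40.5% of other regions, and above 96% and up to 97% they were 43.5% of 501 and 36.0%. Above 97% and up to 98% they were 34.3% of 324 members and 29.9%, and above 98%, against the order in members, 38.9% of 36 members and 23.0%. The shares at or above 2-fold over these 6 classes were 22.2%, 16.2%, 10.3%, 4.79%, 1.85% and 0% in members, and 29.9%, 17.0%, 10.6%, 8.40%, 6.04% and 5.66% in other regions. The absolute log2 ratio and identity had a Spearman's rho of -0.29 and a Pearson's r of -0.20 over 1228 members, and rho of -0.24, -0.23 and -0.26 in the single libraries. Members that differ more also had fewer reads, with a median of 142 assigned reads per library in the lowest class and 486 above 97% and up to 98%, and the part of depth in this was not tested.

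Single members at the ends of the identity range varied widely. The lowest, a fused block of 1526 bases with 86.96% identity, had 29, 30 and 42 D. melanogaster reads, against 2, 15 and 12 D. simulans reads. It had no unassigned read, and its log2 ratios of 3.56, 0.98 and 1.77 in the 3 libraries were far apart on the same side of 0. An exon of 2145 bases with 90.68% identity had 46, 22 and 36 D. melanogaster reads, against 32, 23 and 46 D. simulans reads, and the libraries did not share a direction. At the other end, an exon of 1525 bases with 99.15% identity had 71, 89 and 81 D. melanogaster reads, against 64, 77 and 84 D. simulans reads, beside 239, 225 and 307 unassigned ones. Neither allele was ahead in all libraries, and the log2 ratio was 0.10 ± 0.17 (SE; edgeR adjusted p = 0.7).

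The log2 ratio varied less between libraries the deeper a member was read, but not relative to counting error. The median SD of a member's log2 ratio over the 3 libraries was 0.61 from 20 up to 50 assigned reads, 0.42 from 50 up to 100, 0.23 from 100 up to 300, 0.15 from 300 up to 1000 and 0.08 above. In the same classes the median chi-square between libraries, over its expected value, was 1.59, 1.89, 1.69, 1.86 and 2.65. Between pairs of libraries, Pearson's r of the log2 ratio was 0.86, 0.87 and 0.90 over the 1228 tested members, and 0.77, 0.79 and 0.84 without the 4 regions set apart above. Spearman's rho was 0.63, 0.62 and 0.69, and in the other tested regions 0.58, 0.60 and 0.59, as descriptions across regions.

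The largest ratios were those of the 4 regions named above. In replicates 1, 2 and 3, F8_SI, the block of 1685 bases with 95.85% identity, held 150404, 141957 and 119003 D. melanogaster reads, against 42, 41 and 24 D. simulans reads. D. melanogaster had almost all reads in each library, and the log2 ratio was 11.91, at 11.79, 11.74 and 12.25 in the 3 libraries. S5_SI, of 1536 bases and 95.38% identity, had 276473, 230444 and 216688 D. melanogaster reads, against 81, 113 and 106 D. simulans reads. Its log2 ratio was 11.23, at 11.73, 10.99 and 10.99 in the 3 libraries. It is the most deeply read member that leaned to D. melanogaster, and took 13.2%, 11.9% and 10.0% of assigned member reads. The block of 1788 bases had log2 ratios of 9.37, 8.92 and 8.63 in the 3 libraries, and the block of 1695 bases 8.16, 7.33 and 7.35. For all 4 the edgeR adjusted p was below the smallest number the software holds, and without the replicate block it was at most 1.8e-24.

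Below these regions the ratios toward D. melanogaster were smaller and the depth far lower. A single exon of 2615 bases with 92.43% identity had 538, 636 and 899 D. melanogaster reads, against 11, 25 and 18 D. simulans reads. The D. melanogaster share was 97.4% ± 1.04 (SD, n = 3), and the log2 ratio was 5.25 (edgeR adjusted p = 1.1e-183, higher in 3 of 3 libraries). An exon of 2205 bases had 104, 140 and 131 D. melanogaster reads, against 11, 10 and 8 D. simulans reads. This list was limited to members with at least 100 assigned reads and 4 reads of each allele in each library. Blocks and exons of 1560 and 3087 bases closed it, at D. melanogaster shares of 84.7% ± 0.418 and 82.0% ± 1.43 (SD, n = 3). In one tested member, of 2091 bases, no D. simulans read was found, with 18, 20 and 24 D. melanogaster reads. Set against a floor of 3 counts for all libraries together, D. melanogaster was at least 20.7-fold higher.

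Toward D. simulans, S31167_SI had the largest ratio of the called members with at least 100 assigned reads and 4 reads of each allele in each library. This exon of 1797 bases with 94.16% identity had 4, 5 and 8 D. melanogaster reads, against 121, 126 and 153 D. simulans reads. The D. melanogaster part was 3.20%, 3.82% and 4.97% in replicates 1, 2 and 3. The log2 ratio was -4.53 (edgeR adjusted p = 3.2e-55), at -4.75, -4.52 and -4.17 in these libraries. An exon of 2084 bases, picked after its values were seen as it has under 4 D. melanogaster reads, had 3, 1 and 0 of these against 189, 210 and 200 D. simulans reads. An exon of 3111 bases had 26, 32 and 19 D. melanogaster reads, against 83, 134 and 142 D. simulans reads, and its D. melanogaster share of 18.3% ± 6.08 (SD, n = 3) varied most among these regions. The list of 8 members toward D. simulans was held to the same limits of reads as S31167_SI, so it leaves out the exon of 2084 bases. In this list, 5 members had log2 ratios of -1.40 to -2.01 at 1660 to 3234 bases.

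**Figure D3:**
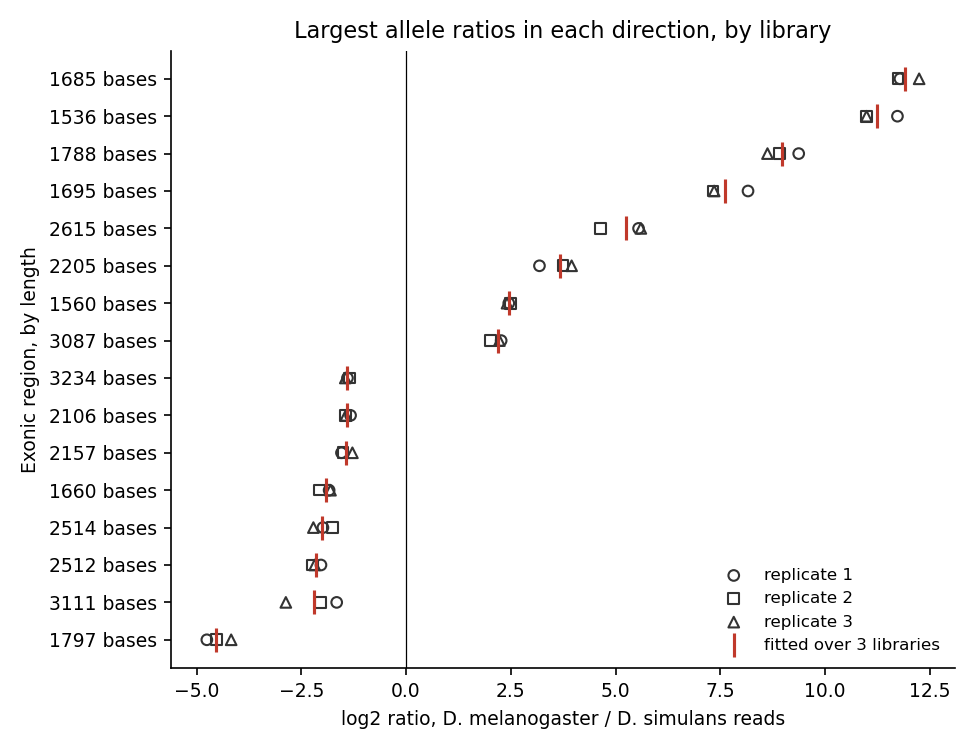
Log2 ratio of D. melanogaster to D. simulans reads (horizontal axis) for the 8 called members with the largest ratio in each direction, ordered from top to bottom and labelled by length. Open symbols are the 3 libraries and the bar is the fitted value. Members were picked only among those whose libraries share a direction, with at least 100 assigned reads and 4 reads of each allele in each library. The fitted values drawn reach 11.91 toward D. melanogaster and -4.53 toward D. simulans. The exon of 2084 bases, with a fitted log2 ratio of -7.10, is outside these limits and is not drawn.

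The most deeply read called members outside those 4 leaned by less than 3-fold. An exon of 1800 bases with 96.83% identity had 32108, 32555 and 37390 D. melanogaster reads, against 12533, 13052 and 14594 D. simulans reads. The libraries lay close together, as 71.7% ± 0.314 (SD, n = 3) of reads were from D. melanogaster. The log2 ratio was 1.34 ± 0.03 (SE; edgeR adjusted p = 3.2e-186). S32102_SI, the exon of 7166 bases, had 181915, 142865 and 158601 D. melanogaster reads, against 245005, 193187 and 205946 D. simulans reads. D. simulans was ahead in each library. The log2 ratio of -0.41 ± 0.03 (SE) had an adjusted p of 1e-47 in edgeR and of 0.012 without the block. An exon of 2119 bases whose identifier number is 2 away leaned the same way, with D. melanogaster shares of 44.2%, 45.2% and 44.7%. Among tested members, 122 pairs had identifier numbers 1 or 2 apart, and in 22 of the 23 pairs with both members called, the direction was shared. Over all tested regions it was shared in 3886 of 4847 such pairs (80.2%), and the difference was not tested. The files do not say whether numbers follow the genome.

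Deep reading did not make small ratios secure. An exon of 6728 bases had 19489, 21105 and 30949 D. melanogaster reads, against 21005, 22640 and 33022 D. simulans reads. Its log2 ratio of -0.10 ± 0.03 (SE) was called by edgeR at an adjusted p of 0.009, with an adjusted p of 0.095 in DESeq2, 0.64 in edgeR without the block and 0.1 in edgeR without replicate 1. In an exon of 1607 bases the log2 ratio was -0.11 ± 0.04 (SE). The edgeR adjusted p was 0.016 there, and 0.057, 0.053 and 0.1 without replicates 1, 2 and 3. The most deeply read member that was not called, of 1782 bases, had 6183, 6672 and 8016 D. melanogaster reads, against 6107, 6433 and 8000 D. simulans reads. Its D. melanogaster share was 50.4% ± 0.442 (SD, n = 3), and the log2 ratio of 0.02 had a standard error of 0.04. The longest member, of 13188 bases, had 2457, 2090 and 2293 D. melanogaster reads, against 2265, 2017 and 2181 D. simulans reads. All 3 libraries leaned to D. melanogaster, and the edgeR adjusted p was 0.19. In the next in length, of 9471 bases, 46.5% ± 0.803 (SD, n = 3) of reads were from D. melanogaster. The edgeR adjusted p was 9.5e-06, and 0.2 without the block.

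Assigned reads are of 2 kinds. Some were placed on the genome of a single species, and others were placed on both genomes but matched one better. The first kind made up 37.7%, 31.3% and 35.5% of assigned member reads in replicates 1, 2 and 3, against 39.5%, 34.2% and 37.6% in the other regions. A read placed on a single genome may be missing from the other for a reason that is not its origin, so the allele ratios of both kinds were compared within each region, by the interaction of allele and kind in edgeR's quasi-likelihood test. Of the 1122 members with enough reads of both kinds, 70 (6.24%) had a different ratio at an adjusted p under 0.05, against 14.0% of all 20143 regions tested. D. melanogaster was higher in the single-genome reads in 44 of them (3.92%, against 10.0% of all) and higher in the reads placed on both genomes in 26 (2.32%, against 3.95%). The count was 40 without replicate 1 (3.57%, against 9.96% of all) and 40 without replicate 3 (3.62%, against 10.3%). The share was lower in members than in the other regions in each depth class, at 3.06% against 10.7% from 100 up to 300 reads, 5.62% against 16.6% from 300 up to 1000 reads and 13.6% against 32.7% at 1000 or more.

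Ratios from both kinds of read lay closer together in members. Their Pearson's r was 0.91 and Spearman's rho 0.71 over the 1122 members, and 0.82 and 0.70 without the 4 regions set apart above. In the other 19021 regions they were 0.51 and 0.54. These are descriptions across regions that share 3 libraries. With each kind alone, 210 members were called by both, 204 in the same direction (18.2% of the members tested, against 17.4% of all) and 6 in opposite directions (0.535%, against 1.53%). Of the 204, 126 leaned to D. melanogaster and 78 to D. simulans, against 2294 and 1219 of 3513 over all regions.

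**Figure D4:**
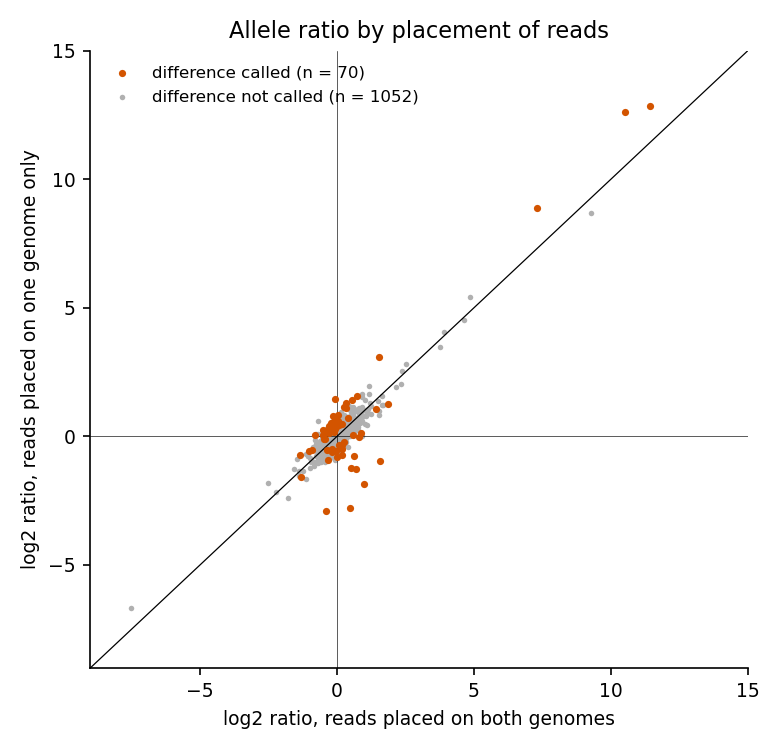
Log2 ratio from reads placed on one genome only (vertical axis) against that from reads placed on both genomes (horizontal axis) for 1122 members, with the line of equality. Orange points are the 70 regions whose ratios differed in edgeR's interaction test and grey points the other members; 3 orange points stand at the upper right, with log2 ratios above 7 on both axes.

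In a few members the kinds of read gave different ratios. A fused block of 2512 bases with 96.97% identity had 728, 540 and 744 D. melanogaster reads placed on a single genome, against 4803, 4738 and 5377 D. simulans reads. Among its reads placed on both genomes, 637, 647 and 640 were from D. melanogaster, against 778, 864 and 902 from D. simulans. The log2 ratio was -2.90 with the first kind and -0.40 with the second, a difference of -2.50 ± 0.09 (SE; edgeR adjusted p = 1.3e-25). With all reads it ranked among the largest toward D. simulans, at -2.15 ± 0.05 (SE), and with exact-match reads only it was -0.72. An exon of 1713 bases with 90.72% identity leaned to D. simulans in single-genome reads, at a log2 ratio of -0.96, and to D. melanogaster in reads placed on both, at 1.56 (difference -2.52 ± 0.21, SE; edgeR adjusted p = 2.1e-13). With all its reads it had 307, 282 and 438 D. melanogaster reads, against 499, 478 and 584 D. simulans reads. Blocks of 1791 and 2845 bases were not called with all reads, at log2 ratios of 0.04 and 0.05, and were called toward D. melanogaster by the first kind and toward D. simulans by the second. An exon of 2514 bases had a log2 ratio of -2.01 with all reads, -2.79 with single-genome reads and 0.48 with reads placed on both, where the edgeR adjusted p was 0.37.

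The 4 members with the largest ratios leaned to D. melanogaster with each kind of read. S5_SI had 131018, 124532 and 106060 D. melanogaster reads placed on both genomes, against 69, 87 and 87 D. simulans reads. F8_SI had 79789, 85746 and 65843 such reads from D. melanogaster, against 34, 28 and 21 from D. simulans. Their ratios with single-genome reads were higher still, by 2.09 and 1.42 on the log2 scale, though with few D. simulans reads of that kind. The exon of 1800 bases also leaned to D. melanogaster with each kind, at log2 ratios of 1.06 and 1.44.

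Reads that matched both species equally were unassigned. They made up 17.6%, 19.0% and 19.5% of member reads in replicates 1, 2 and 3, and 31.5%, 32.4% and 30.2% in the 54803 other regions under 100% identity. The mean was 18.7% ± 0.962 in members and 31.3% ± 1.13 in those other regions (SD, n = 3 each), given as a description because identity was part of the rule. The share followed identity. Among members with at least 20 reads, Spearman's rho between identity and unassigned share was 0.78 (n = 1250 members, Pearson's r 0.65). In the 6 identity classes from low to high, the medians were 4.16%, 7.0%, 11.6%, 17.5%, 27.7% and 41.6% in members, and 0.727%, 4.55%, 9.52%, 15.5%, 25.4% and 45.3% in other regions. Pooled over reads the order could differ, as above 97% and up to 98%, where 28.6%, 28.9% and 28.7% were unassigned in members and 37.6%, 36.4% and 36.2% in other regions. Single regions went against this. S5_SI, at 95.38% identity, had 1.89% unassigned reads, and F8_SI, at 95.85%, had 15.4%. A fused block of 3234 bases with 93.54% identity, picked after its values were seen, had 512, 508 and 737 unassigned reads, against 37, 22 and 57 assigned reads.

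The deposited tables also give a coverage signal of each region in Berlin and in C167.4. The reads behind it are not stated, so it cannot be taken as independent of the hybrid libraries. In 1098 of the 1228 tested members C167.4 coverage was higher, and the median log2 ratio of Berlin to C167.4 coverage, with 0.5 added to each, was -0.68 (-0.70 in the other tested regions). Relative to that median, 227 of the 308 members called toward D. melanogaster and 47 of the 220 called toward D. simulans had higher Berlin coverage. Of the 52 members at least 2-fold toward D. melanogaster, 50 lay above the median, and of the 25 at least 2-fold toward D. simulans 22 lay below it. Across the tested members the coverage ratio and the hybrid ratio had a Pearson's r of 0.56 and a Spearman's rho of 0.50, against 0.36 and 0.41 in the other tested regions, as descriptions across regions.

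**Figure D5:**
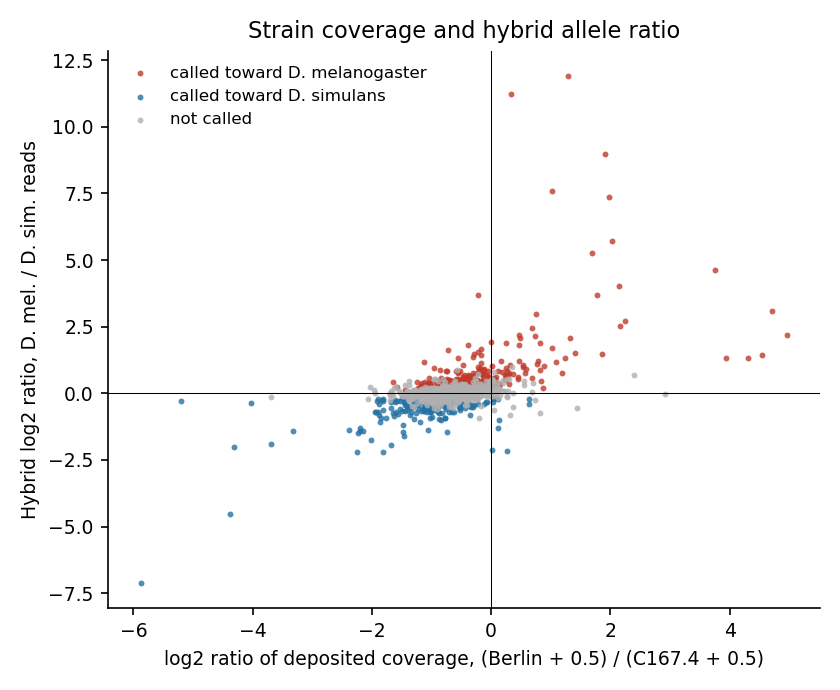
Hybrid log2 ratio of D. melanogaster to D. simulans reads (vertical axis) against the log2 ratio of deposited coverage in Berlin to that in C167.4, each with 0.5 added (horizontal axis), for 1228 tested members. Red, blue and grey mark regions called toward D. melanogaster, toward D. simulans and not called; the cloud of grey points is centred left of 0, and S5_SI and F8_SI stand above 11 at coverage ratios of 0.33 and 1.29.

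Several members with large ratios leaned the same way in coverage. S31167_SI had a coverage of 0.62 in Berlin and 22.8 in C167.4, and the exon of 2084 bases 0.02 and 30.0. The exon of 1800 bases had 42.2 in Berlin and 1.65 in C167.4, and the exon without D. simulans reads 1.55 and 0.02. In S5_SI, Berlin coverage was 25529 and C167.4 coverage 20360, although D. melanogaster reads outnumbered D. simulans reads 2399-fold in the hybrids. F8_SI had 15799 and 6451. The fused block of 2512 bases, whose ratio depended on placement, had 989 in Berlin and 826 in C167.4. The exon of 7166 bases had 357 and 386.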

How the data were processed

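RNA was measured in 3 libraries of hybrid heads, a single group. The authors deposited raw counts of reads per exonic region in 10 match classes, per the file headers, with 4 classes for each allele and 2 for reads that matched both species equally. Percent identity, percent of altered positions, region lengths and a coverage signal per strain are also deposited, per the file headers, and were identical in the 3 tables. Alignment used Bowtie, per the submitters' processing notes, and its version is not given in the sources used here, nor are the build and annotation behind the regions. Nor is it stated if pairs or single reads were counted. Ratios are not corrected with genomic DNA, which was not analysed here.

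The classes of each allele were summed per library. Regions with a mean of 20 or more assigned reads per library entered edgeR's quasi-likelihood test (edgeR 4.0.16, R 4.3.3), with replicate as a block, as both alleles come from the same pool, and 1 library size for both. P-values were adjusted by Benjamini-Hochberg over all 33303 tested regions. With 2 residual degrees of freedom, the spread was estimated largely from all regions together. Placement was tested as an interaction over 12 columns, with library and kind as a block, in 20143 regions. Standard errors are the log2 value divided by the square root of F. At extreme ratios with few reads of one allele this falls below the counting error, so it is not printed there. DESeq2 (1.42.0) was an alternative. Scripts were tested on simulated data. Library ratios used a pseudocount of 0.5. Intervals and floors cover counting error only.

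Members and lists were chosen with earlier results of these data known. The naming rule took, among tested members, up to 8 per direction with the largest ratio (called, same direction in all 3 libraries, at least 100 assigned reads and 4 reads of each allele in each). It also took the 5 per direction with the most reads, the 3 longest, the 3 deepest not called, the 3 lowest and 3 highest in identity, those with no read of one allele, and the 3 deepest with opposite calls by placement.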

Additional observations from a re-analysis of the deposited data

Results flagged for a closer look

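In 2 members that were too thinly read for an allele ratio, reads without an allele averaged 20 or more per library. Such reads were left out of the allele ratios. One member, of 1636 bases and 95.97% identity, averaged 43.7 unassigned reads per library, with 41, 41 and 49 in replicates 1, 2 and 3, against 9, 25 and 10 assigned reads. The other, of 2099 bases and 97.43% identity, averaged 27.3, with 30, 21 and 31 unassigned reads, against 0, 0 and 1 assigned reads. The origin of these reads was not tested. With 3 libraries, single outlying samples were not tested.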

How the results depend on the processing

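The count of called members (528) was 384 to 408 when 1 replicate was left out (31.2% to 33.3%, against 27.9% of all tested regions). Of these, 233 to 237 were toward D. melanogaster and 147 to 174 toward D. simulans. It was 248 (150 and 98) with DESeq2, 278 (175 and 103) without the replicate block, 170 (106 and 64) with edgeR against a minimum log2 ratio of 0.32 and 329 with single-genome reads (117 toward D. simulans). Calls toward D. melanogaster were 203 with TMM and 202 with DESeq2 size factors. With other limits of the rule the count was 260 (150 and 110) at 2000 bases or more, 1167 (700 and 467) at 1000 or more and 928 (571 and 357) with lengths within 3 bases, since these change the number of members.

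The median log2 ratio (0.0421) was -0.0495 with TMM, -0.0527 with DESeq2 size factors, 0.0510 with no depth filter, 0.0552 with single-genome reads, 0.0336 with reads placed on both, 0.0593 with exact-match reads, 0.0349 at 2000 bases or more, 0.0516 at 1000 or more and 0.0670 with lengths within 3 bases. With 1 replicate left out it was 0.0394 to 0.0470. The D. melanogaster share was 46.6% at 2000 bases or more, 57.5% at 1000 or more, 57.5% within 3 bases, 50.6% without the 10 deepest members, 62.5% with single-genome reads, 57.9% with reads placed on both and 61.3% with exact-match reads. Without the regions at mitochondrial lengths, chosen after seeing the data, it was 49.6% (3 left out) or 48.7% (4 left out). It was 59.0% to 60.2% with 1 replicate left out. The unassigned share was 21.8% at 1000 bases or more, 34.5% within 3 bases, 23.8% without the 10 deepest, 21.0% without 3 and 21.3% without 4 regions, and 18.3% to 19.3% with 1 replicate left out. Placement differences (70) numbered 40 to 52 with 1 replicate left out, 42 at an adjusted p under 0.01, 31 at 2000 bases or more, 184 at 1000 or more and 155 within 3 bases.

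Over 37 named members and 10 settings that changed test, scaling, reads or libraries, 315 values kept direction and call, 14 lost the call, 11 gained it and 22 changed sign. Members called as reported or under the changed setting changed sign with reads placed on both genomes, at 0.475 (2514 bases), -0.359 (1791), 1.56 (1713) and -0.288 (2845). In the other sign changes the member was called neither as reported nor under the changed setting. With TMM they were -0.0118 (13188 bases), -0.0679 (1782), -0.0508 (2145), -0.0510 (1791) and -0.0398 (2845). With DESeq2 size factors they were -0.0146, -0.0708, -0.0537, -0.0539 and -0.0427 in the same order. With single-genome reads the 1525-base member was at -0.306, and with reads placed on both the 1905-base member at 0.0195. With exact-match reads the values were 0.383 (1905), -0.00885 (2034) and -0.129 (1791). With 1 replicate left out the ranges were -0.237 to 0.280 (2145), -0.0158 to 0.337 (2034) and -0.00133 to 0.117 (1791). The remaining values could not be fitted, as too few reads were left in those members. Apart from alternatives noted here, the cause of these differences was not tested. Depth limits members below 50 reads, whose median standard error was 0.37.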
